A study of Homo sapiens with 8 samples.

Results

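The kallikrein-related peptidases are secreted serine proteases encoded side by side on chromosome 19. The 8 genes described here, KLK5, KLK6, KLK7, KLK8, KLK9, KLK10, KLK11 and KLK13, were taken by name from the 56632 gene rows of an RNA-seq count table and followed across a human breast cancer progression series. M1 is MCF10A, an immortalized mammary epithelial line that forms no tumors. M2 (MCF10AT1k.cl2) came from MCF10A after transfection with activated T24-HRAS and passage as a xenograft, and it forms premalignant lesions. M3 (MCF10Ca1h) and M4 (MCF10CA1a.cl1) were both established from carcinomas that arose in M2 xenografts: tumors grown from M3 are low in grade and keep epithelial differentiation, whereas those of M4 lack it, and M4 cells can seed the lung from the blood. Each of the 4 lines was grown as acini in Matrigel for 8 days in a medium with horse serum, hydrocortisone, cholera toxin and insulin, and was sequenced as 2 biological replicates. M1 and M2 received EGF (10 ng/ml), whereas M3 and M4 did not, so between these 2 pairs of lines the effects of line and medium cannot be told apart. All 4 lines descend from 1 parental line, so each stage is represented by a single derived line and not by independent tumors.

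Kallikreins are made as inactive precursors that are switched on by removal of a short N-terminal peptide. In stratified epithelia they form a cascade, in which KLK5 can activate itself and the precursors of KLK7 and other members, and in which SPINK5 (the inhibitor LEKTI) holds them in check until the corneodesmosomes of the outer layers are cleaved. Active kallikreins also cut matrix proteins, growth factor binding proteins and the protease-activated receptors, and several members were first studied as markers of breast and ovarian carcinomas.

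Total counts ran from 69669970 to 107350344 per library. The libraries of a line were not equally alike: in genes with at least 20 counts in the pair, the mean chi-square per gene, which is 1 for counting noise alone, was 6.65 between the M2 libraries, 111 in M4, 233 in M1 and 293 in M3. The labels of 2 libraries conflict with another source. In the expression table published with the data, 6 columns followed the library of the same label, but the column for M1 replicate 2 followed the library labelled M2 replicate 1 and the reverse. The sample labels were used throughout, and calls that change when these libraries are exchanged or left out are marked. Statements on whether the libraries of lines overlap also use these labels. The share of all genes whose libraries separate in such ways was not counted. HRAS did not separate M1 (154 and 139 CPM, counts scaled to library size) from M2 (160 and 153 CPM), and was at 269 to 352 CPM in M3 and M4. Under the sample labels L1CAM was at 3.07 and 3.06 CPM in M1 and 12.3 and 13.2 CPM in M2. ZNF750 was at 13.1 and 10.8 CPM in M1 and 2.90 and 3.07 CPM in M2. Both genes were picked for this after their values were seen, and which source holds the right labels was not tested. Basal epithelial markers were present in every library: none of 8 was at 0, and their sum ran from 8697 to 16093 CPM. The sum ran from 1278 to 4569 CPM for 8 luminal markers and from 163 to 2020 CPM for 8 mesenchymal markers. Such levels do not by themselves settle the identity of the cells. Of the 7 markers of immune, fat, blood, muscle and liver cells that were found in the table, CD3E, ADIPOQ and HBB had no count, and CD68, a lysosomal protein abundant in macrophages, was the one that reached more than 1 CPM. CD68 was higher in M4 (51.3 and 39.0 CPM) than in M1 (9.54 and 4.02 CPM; 2.73 ± 0.664, edgeR adjusted p = 0.0199), with PTPRC, the pan-leukocyte marker, at 0 in both M4 libraries. In M4 against M1, 2 of 8 basal markers were called higher and 3 lower, 3 of 7 tested luminal markers higher and 1 lower, and 0 of 7 tested mesenchymal markers higher and 1 lower, and their part in the kallikrein differences was not tested. In bulk RNA, fewer cells that express a gene and less RNA per cell cannot be told apart.

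The kallikrein cluster spans 265.101 kb of chromosome 19 (GRCh37, from position 51322402 to 51587502), and all 8 members are transcribed from the minus strand. From the end nearest the centromere the members lie in the order KLK5, KLK6, KLK7, KLK8, KLK9, KLK10, KLK11 and KLK13, with KLK1, KLK15, KLK3, KLK2, KLKP1 and KLK4 before KLK5, KLK12 before KLK13 and KLK14 after it. KLK5 (ENSG00000167754) occupies chr19:51446559-51456349, KLK6 (ENSG00000167755) chr19:51461887-51472929, KLK7 (ENSG00000169035) chr19:51479724-51487355 and KLK8 (ENSG00000129455) chr19:51499263-51505967. The 250 bases before the transcript starts of KLK5, KLK6 and KLK7 are shown because these 3 neighbours varied over the lines in different ways. The sequences run 5′ to 3′ on the minus strand, from GRCh37 positions chr19:51456350-51456599 for KLK5, chr19:51472930-51473179 for KLK6 and chr19:51487356-51487605 for KLK7, and capitals mark GC-box letters (GGGCGG or its complement CCGCCC).
KLK5: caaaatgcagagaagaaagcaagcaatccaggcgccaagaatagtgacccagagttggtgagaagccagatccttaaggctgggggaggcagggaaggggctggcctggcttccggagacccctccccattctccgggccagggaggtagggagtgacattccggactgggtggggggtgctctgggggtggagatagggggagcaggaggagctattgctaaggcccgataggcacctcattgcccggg
KLK6: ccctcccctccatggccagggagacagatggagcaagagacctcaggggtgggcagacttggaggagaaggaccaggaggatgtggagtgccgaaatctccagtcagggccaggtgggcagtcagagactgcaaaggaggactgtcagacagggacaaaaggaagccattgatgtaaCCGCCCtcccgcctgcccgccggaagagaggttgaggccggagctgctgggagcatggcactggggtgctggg
KLK7: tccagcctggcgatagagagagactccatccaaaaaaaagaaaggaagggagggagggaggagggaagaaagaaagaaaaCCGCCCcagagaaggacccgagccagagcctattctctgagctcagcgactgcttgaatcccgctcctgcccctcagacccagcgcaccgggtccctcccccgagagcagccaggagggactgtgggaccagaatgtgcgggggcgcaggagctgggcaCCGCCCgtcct

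The KLK5 window held no GC-box letters, that of KLK6 held 1 match, and that of KLK7 held 2. Over the 8 members 5 windows held a match, against 56.5% of the 19874 windows of the same length and kind before protein-coding genes. None of the 8 windows held the TATA-box letters TATAAA, the AP-1 letters TGANTCA or the grainyhead-like letters AACCGGTT on either strand, which were found in 9.25%, 4.75% and 0.131% of all windows. The windows lie before the outermost annotated start near the canonical one. That start is 55 bases upstream of the canonical start for KLK5, 82 for KLK6, 182 for KLK7 and 98 for KLK8. The bases between the 2 starts were not searched. A match is a string of letters only and says nothing on binding.

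To compare genes with each other, CPM was divided by the length of each gene's merged exons. On this scale KLK5 was the highest member in every line, at mean levels of 31.7 CPM per kb in M1, 22.5 for M2, 87.6 for M3 and 165 for M4, and in no line did its 2 libraries overlap the next member. In M1 KLK7 (6.20 CPM per kb), KLK10 (4.17), KLK6 (2.90) and KLK8 (2.82) followed, each overlapping its neighbour in the order, and KLK9, KLK11 and KLK13 were below 1 CPM per kb. In M3 the second and the third place were taken by KLK10 (3.35 CPM per kb) and KLK6 (2.10), and KLK7 (0.0253) lay among the 3 lowest with KLK13 and KLK11, whose ranges overlapped. In M4 KLK6 stood second at 16.7 CPM per kb, above KLK10 (5.06) and KLK7 (0.542), while KLK9, KLK11, KLK13 and KLK8 overlapped at the bottom.

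**Figure D1:**
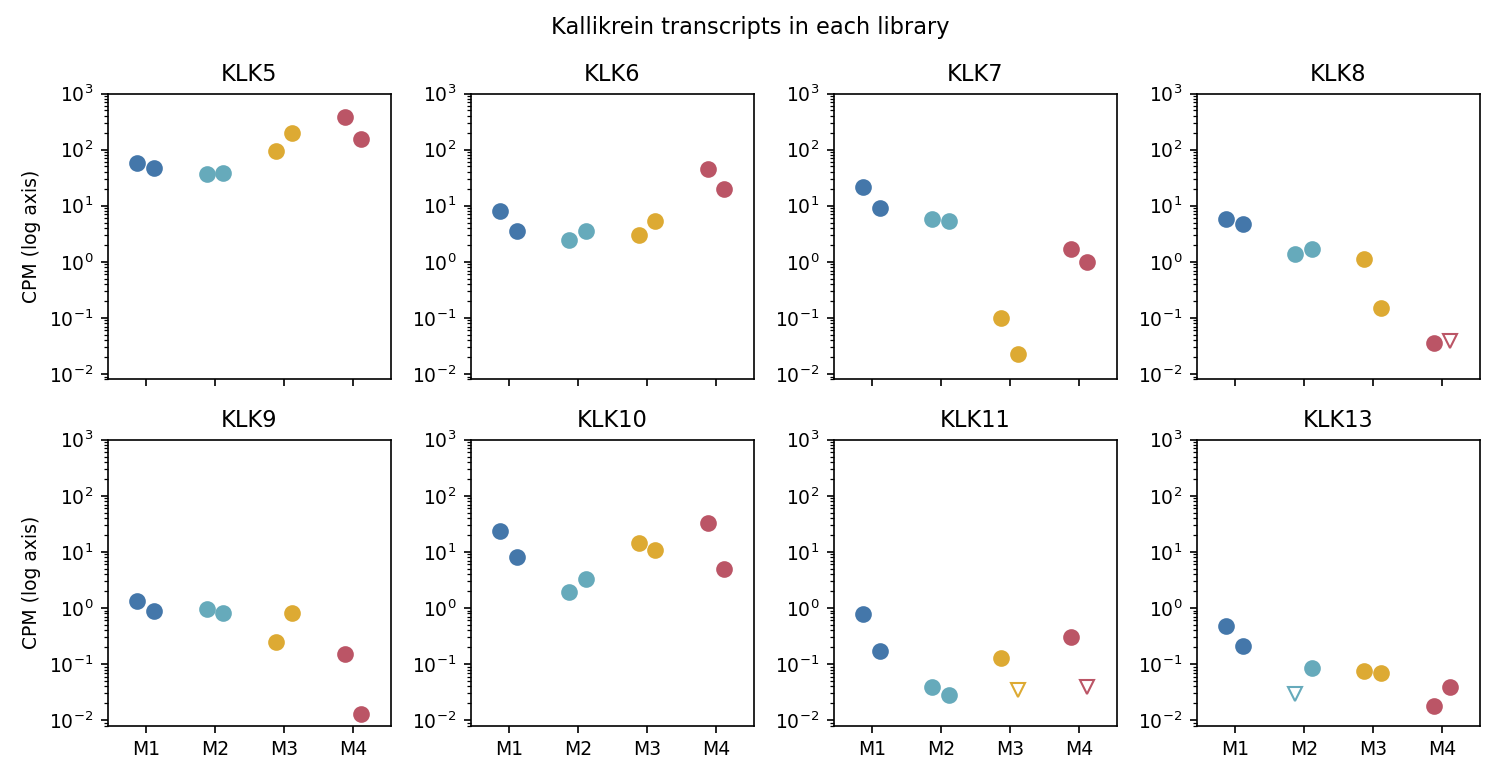
Each point is 1 library and gives the CPM of a kallikrein on a log axis, with 2 replicates for each of M1, M2, M3 and M4; open triangles mark libraries with no count, drawn at the CPM that 3 counts would give. KLK6 is highest in M4, KLK5 is higher in M3 and M4 than in M1 and M2 with M3 and M4 overlapping, KLK7 is lowest in M3, and KLK8 steps down to 1 M4 library with 4 counts and 1 with none.

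All 8 members passed the filter on low counts, and a gene was called where its edgeR adjusted p (Benjamini-Hochberg over 18431 genes) was below 0.05 and its log2 fold change was beyond 1 in either direction. KLK5, KLK6, KLK7 and KLK8 varied over the 4 lines, 4 of 8 members, where 36.4% of all tested genes did so. M4 differed from M1 in 5 of 8 members, 2 higher (KLK5 and KLK6) and 3 lower (KLK7, KLK8 and KLK9), against 20.7% of all genes called, 9.48% higher and 11.2% lower. M3 differed from M1 in 2 members, both lower (KLK7 and KLK8), against 13.5% of all genes called, 8.02% higher and 5.51% lower. In M2 against M1, where both lines had EGF, 0 of 8 members were called by edgeR (3.37% of all genes, 2.26% higher and 1.11% lower). In that contrast 3 members (KLK7, KLK10 and KLK13) had an unadjusted edgeR p below 0.05, and DESeq2 called 1 (KLK7). The shares of all genes with such a p or called by DESeq2 were not counted, so these numbers of members have no background.

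M4 differed from M2 in the same 5 members and directions as from M1 (13.9% of all genes called, 6.98% higher and 6.94% lower). M3 differed from M2 in KLK7 alone, which was lower (4.15% called, 2.95% higher and 1.2% lower). M4 differed from M3, with no EGF in either, in 3 members, KLK6 and KLK7 being higher and KLK8 lower (10.3% called, 3.99% higher and 6.3% lower). The median log2 fold change of the 8 members was -2.57 for M4 against M1 and -1.63 for M3 against M1, beside medians of -0.02 over all tested genes in both, and -1.60 for M2 against M1 (all genes -0.04), where no member was called. In the contrasts without M1 the median of the members was above 0, at 0.66 for M3 against M2, 0.81 for M4 against M2 and 0.76 for M4 against M3, beside -0.00, -0.01 and -0.02 over all genes. Contrasts that share a line are not independent of each other.

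**Figure D2:**
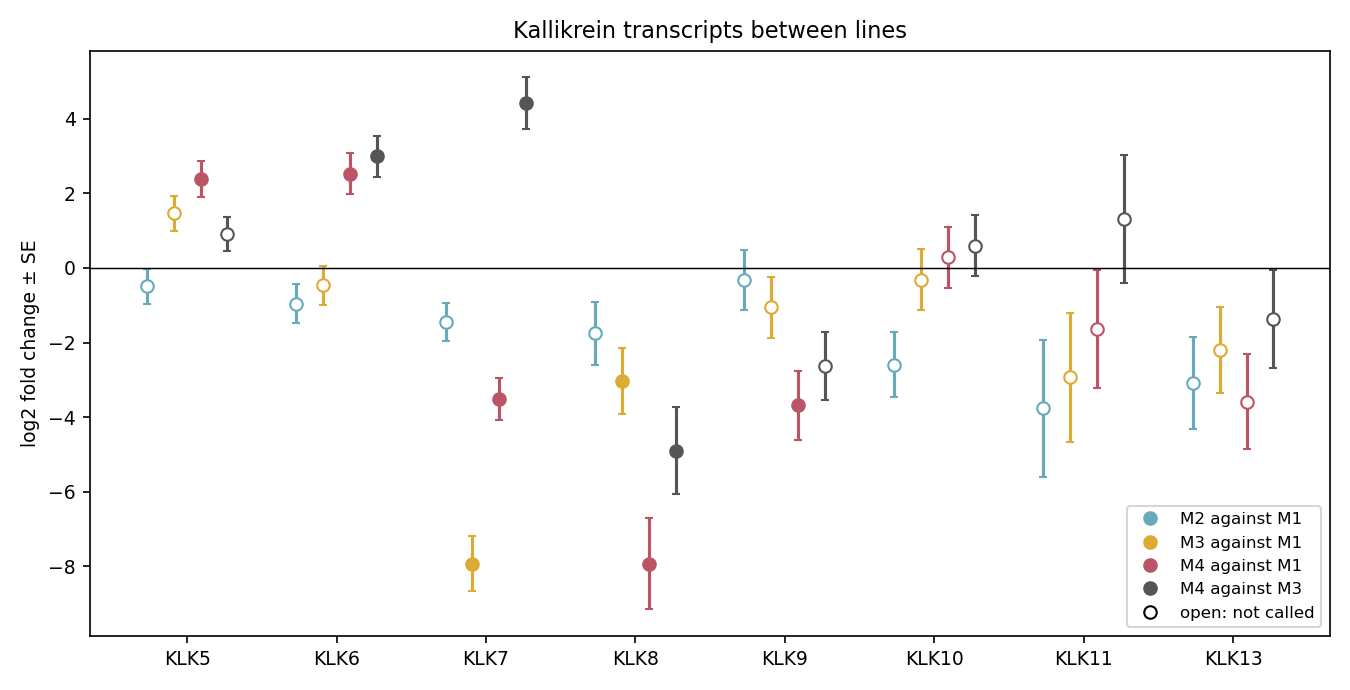
Points give log2 fold changes of the 8 members with their standard errors for M2, M3 and M4 against M1 and for M4 against M3; filled points were called and open points were not. KLK7 has a log2 fold change of -7.93 in M3 against M1 and of 4.42 in M4 against M3, whereas KLK8 is lowest in M4.

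KLK5, the trypsin-like initiator of the epidermal cascade, was at 57.0 and 47.6 CPM in M1, 36.8 and 37.6 for M2, 92.9 and 197 for M3 and 389 and 157 for M4. The M3 and M4 libraries were all above those of M1 and M2, while M3 and M4 overlapped each other. KLK5 rose by 2.38 ± 0.483 (log2 fold change ± SE) in M4 against M1, a 5.21-fold difference (edgeR adjusted p = 0.0104), and by 2.88 ± 0.493 in M4 against M2 (edgeR adjusted p = 0.00791). In M3 against M1 the log2 difference was 1.47 ± 0.469 and was not called (edgeR adjusted p = 0.0637). DESeq2 called that difference (adjusted p = 0.00502), as did fits without M3 replicate 1, M4 replicate 1 or M4 replicate 2 (edgeR adjusted p of 0.0397, 0.0306 and 0.0324). The call of M4 against M1 was lost only when both libraries with conflicting labels were left out (2.26, adjusted p = 0.0961), and that of M4 against M2 was lost without M2 replicate 1 or 2 (adjusted p of 0.0779 and 0.0738) or without both conflicting libraries (adjusted p = 0.0803).

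KLK6, a trypsin-like protease that is also abundant in the nervous system, was at 7.96 and 3.51 CPM in M1, 2.42 and 3.50 for M2, 2.99 and 5.31 for M3 and 46.0 and 20.2 for M4. Only the M4 libraries stood apart, both above each of the other 6 libraries. KLK6 rose in M4 by 2.53 ± 0.543 against M1 (5.77-fold, edgeR adjusted p = 0.0117), by 3.49 ± 0.568 against M2 (11.2-fold, edgeR adjusted p = 0.00592) and by 2.99 ± 0.554 against M3 (7.96-fold, edgeR adjusted p = 0.0133). KLK6 lies next to KLK5, and in M3 against M1 the KLK6 log2 difference was -0.47 ± 0.521, which was not called (edgeR adjusted p = 0.558), beside 1.47 for KLK5. The call against M1 was lost without M1 replicate 2 (2.06, adjusted p = 0.0508), without M4 replicate 1 (1.81, adjusted p = 0.0657) and without both conflicting libraries (2.05, adjusted p = 0.0650). Those against M2 and M3 were lost without M2 replicate 1 (adjusted p = 0.0678) and without M3 replicate 1 or M4 replicate 1 (adjusted p of 0.0735 and 0.0740), respectively.

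KLK7, the chymotrypsin-like enzyme that cleaves corneodesmosin and desmocollin 1, was at 21.4 and 9.01 CPM in M1, 5.71 and 5.39 for M2, 0.101 and 0.0230 for M3 and 1.67 and 0.986 for M4. No line overlapped another in KLK7, and the order of the lines from high to low was M1, M2, M4 and M3. With the conflicting libraries exchanged, M1 and M2 would overlap. In expected counts, M3 held 8 and 2 against 1768 and 739 in M1. KLK7 fell by 7.93 ± 0.741 in M3 against M1 (244-fold, edgeR adjusted p = 0.000839), fell by 6.48 ± 0.712 in M3 against M2 (edgeR adjusted p = 0.00400) and fell by 3.51 ± 0.562 in M4 against M1 (11.4-fold, edgeR adjusted p = 0.00354). M4 was higher than M3 by 4.42 ± 0.689 (21.4-fold, edgeR adjusted p = 0.00781), so the 2 carcinoma lines, both without EGF, differed from each other in KLK7. With single libraries left out, the log2 difference ranged from -9.28 to -7.18 in M3 against M1 and from 3.70 to 5.77 in M4 against M3. These 4 calls held under every alternative setting, including exchange or omission of the conflicting libraries. The fall of M4 against M2 (-2.06 ± 0.534, edgeR adjusted p = 0.0301) was lost under 6 of 18 alternatives, among them the omission of M2 replicate 1, M2 replicate 2, M4 replicate 1 or M4 replicate 2 (adjusted p of 0.132, 0.119, 0.0809 and 0.153).

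KLK8 (neuropsin), a trypsin-like protease of the epidermis and hippocampus, was at 5.88 and 4.65 CPM in M1, 1.40 and 1.72 for M2, 1.14 and 0.149 for M3 and 0.0352 and 0 for M4. Both M4 libraries were below all others, and M4 replicate 2 had no count where 3 counts would give 0.0384 CPM. Pooled over a line, M4 held 4 KLK8 counts and M1 held 868, a ratio of 252 (95% exact interval 98.1 to 928, counting error only). It was 149 without M4 replicate 2, and without M4 replicate 1 it was a bound of at least 137 (a floor of 3 counts). KLK8 fell by 7.93 ± 1.21 in M4 against M1 (edgeR adjusted p = 0.00306) and fell by 6.18 ± 1.17 in M4 against M2 (edgeR adjusted p = 0.0101). The M4 against M1 call held under all 18 alternatives, and that against M2 was lost without M2 replicate 2 or M4 replicate 2 (adjusted p of 0.0526 and 0.0576).

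In M3 against M1 KLK8 was lower by a log2 difference of -3.04 ± 0.885 (edgeR adjusted p = 0.0463) and the 2 M3 libraries were far apart, and 10 of 18 alternatives lost that call, including the exchange of the conflicting libraries (-2.50, adjusted p = 0.302). Each omission of a single library other than M3 replicate 1 also lost it: M1 replicate 1 (adjusted p = 0.107), M1 replicate 2 (0.0764), M2 replicate 1 (0.0912), M2 replicate 2 (0.0901), M3 replicate 2 (0.0873), M4 replicate 1 (0.0515) and M4 replicate 2 (0.0513). KLK8 was lower in M4 than in M3 by a log2 difference of -4.90 ± 1.17 (edgeR adjusted p = 0.0291), and 8 of 18 alternatives lost this call, with adjusted p up to 0.118. Among them were the omissions of M2 replicate 1, M2 replicate 2, M3 replicate 1, M4 replicate 1 and M4 replicate 2 (adjusted p of 0.0631, 0.0623, 0.105, 0.0913 and 0.118).

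KLK9, a chymotrypsin-like member, was at 1.35 and 0.890 CPM in M1, 0.972 and 0.824 for M2, 0.253 and 0.827 for M3 and 0.150 and 0.0128 for M4. It was lower in M4 than in M1 by a log2 difference of -3.68 ± 0.932 (edgeR adjusted p = 0.0209) and lower than in M2 by -3.36 ± 0.925 (edgeR adjusted p = 0.0365). The KLK9 counts are uncertain, because a second coding row, ENSG00000269741 at chr19:51499274-51512837, shares 96.3% of the exon bases of KLK9 and 40.1% of those of KLK8, and RSEM divides shared reads among such rows. That row moved with KLK9, with a log2 difference of -3.33 ± 0.686 in M4 against M1 (edgeR adjusted p = 0.00957). The M4 against M1 call of KLK9 was lost under the exchange of the conflicting libraries (adjusted p = 0.0555), without both (0.0585), without M1 replicate 1 (0.0608) and without M4 replicate 2 (0.0744). The call against M2 was lost without M2 replicate 1, M2 replicate 2 or M4 replicate 2 (adjusted p of 0.136, 0.114 and 0.113), under the exchange (0.0668) and without both conflicting libraries (0.130).

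KLK10, KLK11 and KLK13 were not called in any of the 6 comparisons. KLK10, first described as a gene lost from breast carcinoma cells and a weak or inactive protease, was at 23.5 and 8.17 CPM in M1, 1.96 and 3.31 for M2, 14.5 and 10.95 for M3 and 33.4 and 5.02 for M4. Under the sample labels M2 lay below every other library while M1, M3 and M4 overlapped. The KLK10 log2 difference was -2.59 ± 0.879 for M2 against M1 (edgeR adjusted p = 0.140) and 2.87 ± 0.888 for M4 against M2 (edgeR adjusted p = 0.0569), a difference that DESeq2 called (adjusted p = 0.0187), as did edgeR without M1 replicate 1, M1 replicate 2 or M4 replicate 2 (adjusted p of 0.0432, 0.0428 and 0.0171). The direction of KLK10 in M4 against M1 (0.28 ± 0.820) reversed when 1 library was left out, to -1.66 without M4 replicate 1 and -0.29 without M1 replicate 2.

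KLK11 and KLK13, both trypsin-like, had few counts. KLK11 had expected counts of 66 and 14 in M1, 4 and 2 for M2, 10 and 0 for M3 and 34 and 0 for M4, and reached 10 counts in 4 libraries. KLK13 had counts of 39 and 17 in M1, 0 and 6 for M2, 6 and 6 for M3 and 2 and 3 for M4, and reached 10 counts in both M1 libraries alone. The M1 libraries were the 2 highest of the 8 for KLK13, but the largest contrast, M4 against M1 (-3.58 ± 1.27), was not called (edgeR adjusted p = 0.0651). It was called without M2 replicate 1 or 2 (adjusted p of 0.0309 and 0.0321) and without both conflicting libraries (0.0394). The KLK11 libraries of M4 disagreed, replicate 1 (34 counts) being above M1 replicate 2 (14 counts) and replicate 2 at 0. Without the filter on low counts KLK11 was called lower in M2 (-3.76, edgeR adjusted p = 0.00490) and in M3 (-2.93, edgeR adjusted p = 0.0184) against M1. KLK11 itself passed the filter, and the fit without it took in 29419 genes in place of 18431. The log2 differences hardly changed, but the standard error in M2 against M1 was 1.03 in place of 1.83. A library with no count allows up to 3 counts, or 0.0295 CPM for KLK13 in M2 replicate 1.

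The make-up of the family differed between lines. Summed over the 8 members, the per-length level was 58.0 and 39.7 CPM per kb in M1, 27.8 and 29.1 for M2, 62.4 and 125 for M3 and 268 and 107 for M4. KLK5 made up 59.5% and 72.6% of that sum in M1, 80.2% and 78.1% for M2, 90.0% and 95.0% for M3 and 87.7% and 88.8% for M4. KLK7 made up 15.1% and 9.28% in M1 but 0.0661% and 0.00748% in M3 and 0.254% and 0.377% in M4. A ratio within a library does not depend on the scaling of that library. The per-length ratio of KLK5 to KLK7 was 3.95 and 7.83 in M1, 9.55 and 10.3 for M2, 1361 and 12697 for M3 and 346 and 235 for M4, so that the 4 lines did not overlap. M1 and M2 would overlap if the libraries with conflicting labels were exchanged. The M3 values rest on 8 and 2 KLK7 counts.

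**Figure D3:**
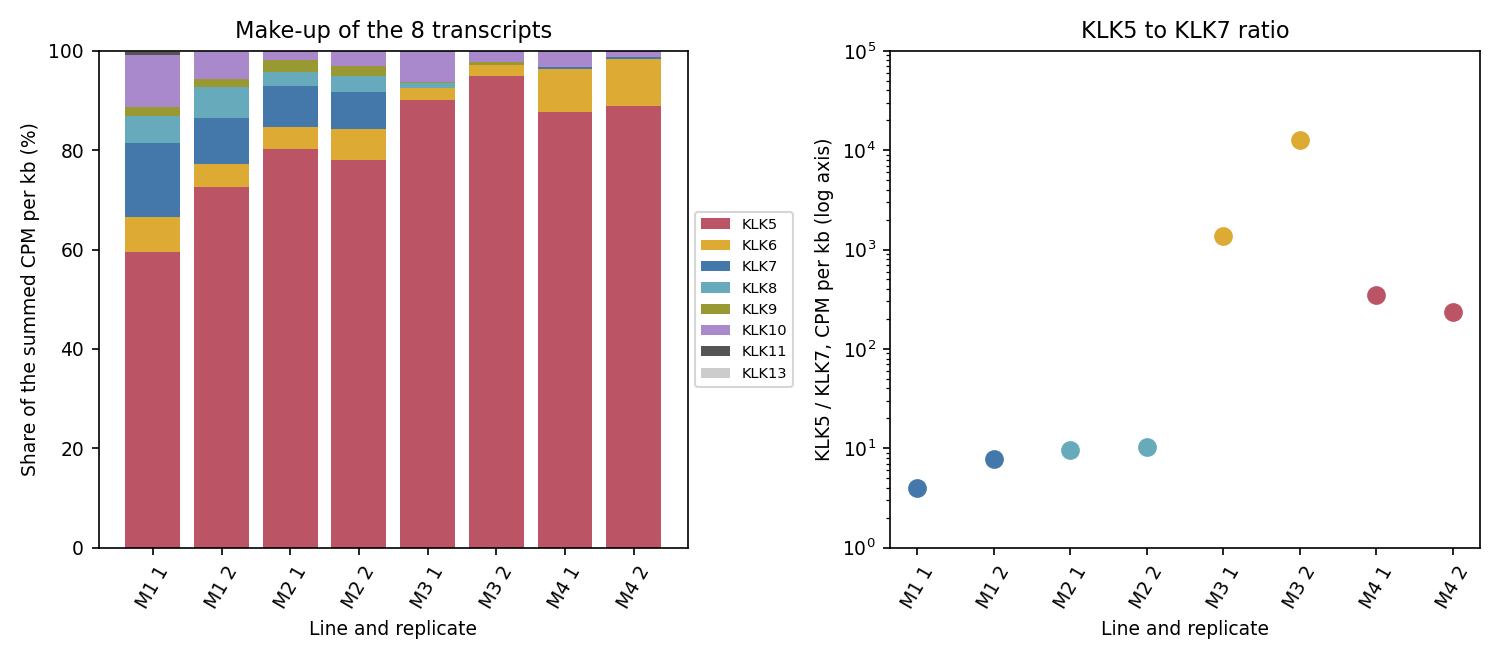
Left, bars give the share of each member in the summed CPM per kb of the 8 kallikreins in each library; right, points give the ratio of KLK5 to KLK7 (CPM per kb, log axis). KLK5 fills 59.5% to 95.0% of the bars, and its ratio to KLK7 lies between 3.95 and 10.3 in M1 and M2 and between 235 and 12697 in M3 and M4.

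Of the 7 other kallikrein genes, KLK2 and KLK12 had no count in any library, KLK15, KLK4 and KLK3 had at most 1, 2 and 12, and KLK1 and KLK14 were tested. KLK1, tissue kallikrein, which releases kinins, had 15 and 20 counts in M1, 61 and 50 for M2, 12 and 9 for M3 and 0 and 1 for M4. KLK1 was called lower in M4 than in M1 (edgeR adjusted p = 0.00812), at a pooled ratio of 40.7 (95% exact interval 6.84 to 1652, counting error only). That ratio was 16.6 without M4 replicate 1, and at least 8.03 without M4 replicate 2 (a floor of 3 counts). KLK14, a trypsin-like partner of KLK5 in skin, fell by 3.07 ± 0.899 in M4 against M1 (edgeR adjusted p = 0.0348), from 50 and 35 counts in M1 to 9 and 3 in M4. One of these 2 calls was lost under the exchange of the conflicting libraries and in each of the fits without M1 replicate 1, M1 replicate 2, M2 replicate 1, M2 replicate 2, M4 replicate 1 or M4 replicate 2, leaving 1, and both were lost without both conflicting libraries.

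Among proteases that can activate kallikrein precursors or act upstream of them, 8 of 14 were tested, and 1 was called higher and 2 lower in M4 against M1, with a median log2 difference of 0.54 beside -0.02 for all genes. For this list, the lists below and the markers above, the shares of all genes in M4 against M1 were 9.48% called higher and 11.2% lower. PLAU (urokinase) rose from 17.3 and 48.2 CPM in M1 to 217 and 190 in M4 (2.64 ± 0.416, edgeR adjusted p = 0.00362). PLAT (tissue plasminogen activator) was lower, at 20.2 and 41.5 CPM in M4 against 57.9 and 276 in M1 (-2.44 ± 0.752, edgeR adjusted p = 0.0448). MEP1A (meprin alpha), a low transcript, held 1 count in M4 against 77 in M1, a ratio of 89.5 (95% exact interval 15.6 to 3580, counting error only), which was 36.5 without M4 replicate 1 and at least 17.7 without M4 replicate 2 (a floor of 3 counts).

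The membrane proteases ST14 (matriptase) and PRSS8 (prostasin), which act together at epithelial surfaces, were not called in M4 against M1 (0.33 ± 0.193 and 0.70 ± 0.413, edgeR adjusted p of 0.231 and 0.234). PRSS8 was higher in M4 (103 and 73.6 CPM) than in M3 (30.9 and 12.6 CPM) by 2.02 ± 0.428 (edgeR adjusted p = 0.0210). TMPRSS4, another membrane serine protease, was lower in M3 than in M1 (-1.59 ± 0.275, edgeR adjusted p = 0.00739) and higher in M4 than in M3 (2.39 ± 0.282, edgeR adjusted p = 0.00336). Cathepsin C (CTSC) rose by 1.76 ± 0.213 in M3 against M1 (edgeR adjusted p = 0.00198). The count of 3 called genes in this list became 1 when the conflicting libraries were exchanged and 5 without M1 replicate 1.

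Of 18 tested inhibitors of serine proteases, 4 were called higher and 3 lower in M4 against M1 (median log2 difference 0.99), and 5 were called higher and 0 lower in M3 against M1 (median 0.66). In M3 against M1, 8.02% of all genes were called higher and 5.51% lower, and their median was -0.02. SPINK5, the main inhibitor of KLK5 and KLK7, was at 2.13 and 1.67 CPM in M1, 3.89 and 3.72 for M2, 12.5 and 9.98 for M3 and 12.5 and 4.66 for M4. SPINK5 rose by 2.56 ± 0.454 in M3 (edgeR adjusted p = 0.00803) and by 2.18 ± 0.448 in M4 (edgeR adjusted p = 0.00949) against M1. PI3 (elafin), an elastase inhibitor, rose by 6.09 ± 0.631 in M3 and by 3.60 ± 0.563 in M4 (edgeR adjusted p of 0.00147 and 0.00387), from 9.68 and 2.91 CPM to 448 and 411 in M3 and 52.5 and 99.8 in M4.

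SPINK1, a trypsin inhibitor, rose by 7.45 ± 0.806 in M4 against M1 (edgeR adjusted p = 0.000737), from 0.0725 and 0.0610 CPM to 18.4 and 5.37. SPINK7 held 149 counts in M4 and 2 in M1, a ratio of 64.1 (95% exact interval 17.4 to 534, counting error only), which was 39.1 without M4 replicate 1. SPINK6, a skin inhibitor of kallikreins, and SERPINA1 (alpha-1 antitrypsin) rose in M3 against M1 by 6.21 ± 1.42 and 3.53 ± 0.562 (edgeR adjusted p of 0.0212 and 0.00644). The SPINK6 libraries of M3 were apart, at 8.06 and 1.17 CPM, and those of M1 held few counts (0.0483 and 0.0732 CPM). WFDC2, a small secreted protein used as an ovarian carcinoma marker, fell from 61.5 and 207 CPM in M1 to 0.0352 and 0.0256 in M4 (-12.01 ± 1.92, edgeR adjusted p = 0.00418). The others that were lower in M4, SERPINA5 (-2.16 ± 0.340) and SERPINA3 (-1.06 ± 0.291), were named after their values were seen. The count of 7 became 4 when the conflicting libraries were exchanged.

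Of 16 tested substrates and receptors, 4 were called higher and 3 lower in M4 against M1 (median log2 difference -0.01). DSG1 (desmoglein 1), which KLK5 cleaves, had no count in M3 and 8 counts in M4 against 471 in M1, at least 158-fold lower in M3 (a floor of 3 counts over the line; at least 83.0 and 75.4 without M3 replicate 1 or 2) and 68.4-fold lower in M4 (95% exact interval 34.4 to 159, counting error only). PKP1 (plakophilin 1), a protein of the desmosomal plaque, fell by 2.35 ± 0.586 in M4 against M1 (edgeR adjusted p = 0.0198). CAMP (cathelicidin), an antimicrobial precursor that skin kallikreins process, fell by 4.95 ± 0.882 in M4 against M1 (edgeR adjusted p = 0.00537). It was near the floor in M4, at 0.00881 and 0.0512 CPM, against 0.942 and 0.841 CPM in M1.

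The cytokine IL1B rose from 0.834 and 0.427 CPM in M1 to 91.7 and 33.6 in M4 (6.63 ± 0.614, edgeR adjusted p = 0.000473), the ERBB ligand NRG1 by 4.08 ± 0.463 (edgeR adjusted p = 0.000888) and the adhesion molecule L1CAM by 3.89 ± 0.177 (edgeR adjusted p = 9.62e-05). The receptors F2RL1 (PAR2) and F2R (PAR1) were not called in M4 against M1, with log2 differences of 0.71 ± 0.201 (edgeR adjusted p = 0.0306, short of the 2-fold limit) and -0.75 ± 0.711 (edgeR adjusted p = 0.457).

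**Figure D4:**
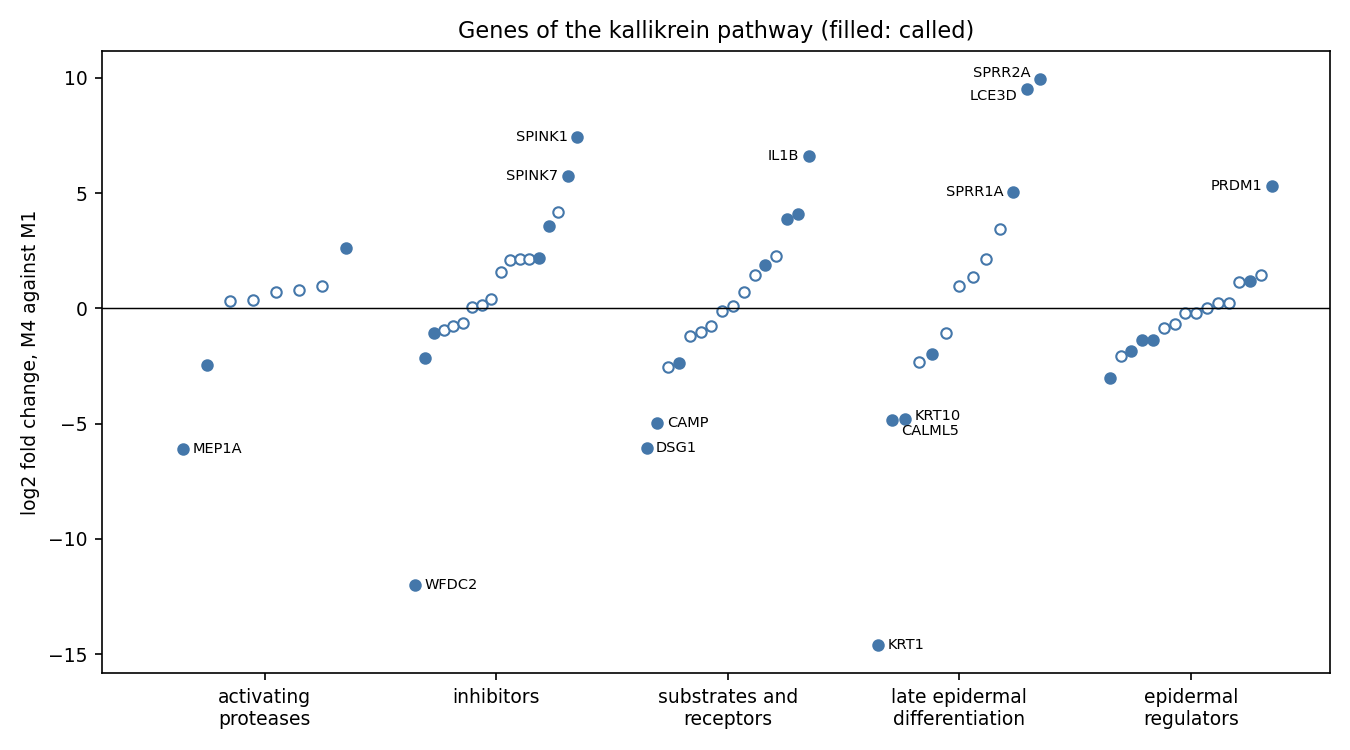
Each point is 1 tested gene and gives its fitted log2 fold change in M4 against M1, by list; filled points were called, and genes beyond 4.5 log2 units are named. Each of the 5 lists drawn holds called genes in both directions; KRT1 has no count in M4, so its fitted value depends on the small count added in the fit and is not a bound.

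Kallikreins are part of the late program of keratinocytes, so 17 genes of late epidermal differentiation were set beside them. Of 13 that were tested, 3 were called higher and 4 lower in M4 against M1 (median log2 difference 1.00). The cornified envelope precursors SPRR2A and LCE3D were at 3 counts each in M1 and at 4310 and 3086 in M4, ratios of 1236 (95% exact interval 423 to 5997) and 885 (303 to 4295, both counting error only). The M4 libraries differed, at 35.8 and 3.14 CPM for SPRR2A and 24.3 and 4.23 CPM for LCE3D, and without M4 replicate 1 the ratios were 172 and 232. SPRR1A, another envelope precursor, rose by 5.05 ± 1.06 (edgeR adjusted p = 0.0119), with M4 libraries at 119 and 17.8 CPM. The keratins of suprabasal cells went the other way: KRT10 fell by 4.80 ± 0.898 (edgeR adjusted p = 0.00751), and KRT1 had no count in M4 against 5890 in M1, at least 2282-fold lower (a floor of 3 counts over the line). M1 replicate 1 held 5859 of those KRT1 counts, and without it the bound was 24.1-fold. CALML5, a calmodulin-like protein of differentiating skin, fell by 4.86 ± 1.04 (edgeR adjusted p = 0.0114). Its M4 libraries were far apart, at 0.599 and 0.0256 CPM, against 10.0 and 8.78 CPM in M1. CNFN (cornifelin), named after its value was seen, was lower by a log2 difference of -1.99 ± 0.589 (edgeR adjusted p = 0.0359).

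These markers also differed between replicates. The summed level of the 17 genes was 992 CPM in M1 replicate 1 and 122 in M1 replicate 2, 327 in M4 replicate 1 and 75.6 in M4 replicate 2, and 64.5 to 155 in the remaining libraries. In M1 and in M4 the library with the higher sum also had the higher KLK5, KLK6, KLK7, KLK8, KLK9, KLK10 and KLK11. This was not so in M3, where replicate 1 had the higher sum (155 against 117 CPM) but the lower KLK5, KLK6 and KLK9, nor in M2, where replicate 1 had the higher sum (66.5 against 64.5 CPM) but the lower KLK5, KLK6, KLK8 and KLK10. KRT1 was at 70.8 and 0.378 CPM and KRT10 at 836 and 96.9 CPM in the M1 libraries. The part of this difference between libraries in the kallikrein levels was not tested. The count of 7 called genes in the list became 4 when the conflicting libraries were exchanged, in a fit of M1 and M4 alone and without M4 replicate 2.

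Of 16 transcription factors of epidermal differentiation, all tested, 2 were called higher and 4 lower in M4 against M1, 1 higher and 4 lower in M3 against M1, and 5 higher and 0 lower in M4 against M3. Of all genes, 8.02% were called higher and 5.51% lower in M3 against M1, and 3.99% higher and 6.3% lower in M4 against M3. PRDM1 (BLIMP1) rose from 0.906 and 0.476 CPM in M1 to 31.3 and 24.5 in M4 (5.33 ± 0.357, edgeR adjusted p = 0.000166). ZNF750, a driver of terminal differentiation, was at 13.1 and 10.8 CPM in M1, 2.90 and 3.07 for M2, 1.11 and 1.54 for M3 and 5.44 and 3.84 for M4. Like KLK7 it was highest in M1 and lowest in M3, but M4 was above M2. ZNF750 fell by 3.17 ± 0.315 in M3 against M1 and was higher in M4 than in M3 by 1.81 ± 0.301 (edgeR adjusted p of 0.00107 and 0.00942). EHF, an epithelial ETS factor, fell by 1.83 ± 0.287 in M4 against M1 (edgeR adjusted p = 0.00327). TP63, which marks basal cells, fell by 1.38 ± 0.172 in M4 (edgeR adjusted p = 0.00133), and GRHL2 fell by 1.29 ± 0.227 in M3 (edgeR adjusted p = 0.00787) against M1. KLF4, named after its value was seen, was higher in M4 than in M1 by 1.18 ± 0.219 (edgeR adjusted p = 0.00634). The count of 6 in M4 against M1 became 3 when the conflicting libraries were exchanged.

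Levels along the cluster did not move as a block. Neighbouring genes took different courses: in M4 against M1, KLK5 and KLK6, whose starts lie 30.9 and 14.3 kb downstream of the KLK7 start, were higher. On the same side KLK1, at 160 kb and with few counts, was called lower (-4.97 ± 0.985). KLK7 itself and its upstream neighbours KLK8 and KLK9 (at -17.7 and -25.7 kb) were lower, and KLK10 (at -35.8 kb) was not called. The nearest tested genes outside the family were C19orf48P on the KLK1 side and CTU1 on the KLK14 side, with log2 differences of -0.77 ± 0.145 and -0.51 ± 0.216, neither called. Of 42 tested genes within 1 Mb of the cluster, 0 were called higher and 11 lower by edgeR in M4 against M1 (26.2%, beside 11.2% of all genes called lower), with a median log2 difference of -0.76, and 0 were higher and 3 lower in M3 against M1 (7.14%, beside 5.51% of all genes called lower, median -0.53). CLEC11A, which encodes a secreted growth factor, had the lowest value among the named ones (-3.11 ± 0.446, edgeR adjusted p = 0.00228). The other called genes were PTOV1, AKT1S1, TBC1D17, ATF5, GARIN5A, VSIG10L, ZNF175, SPACA6, ZNF615 and ENSG00000269388, whose row was the lowest of all at -4.86 ± 0.810; these genes around the cluster were named after their values were seen. The 11 became 3 when the conflicting libraries were exchanged, and 7 without M4 replicate 2.

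**Figure D5:**
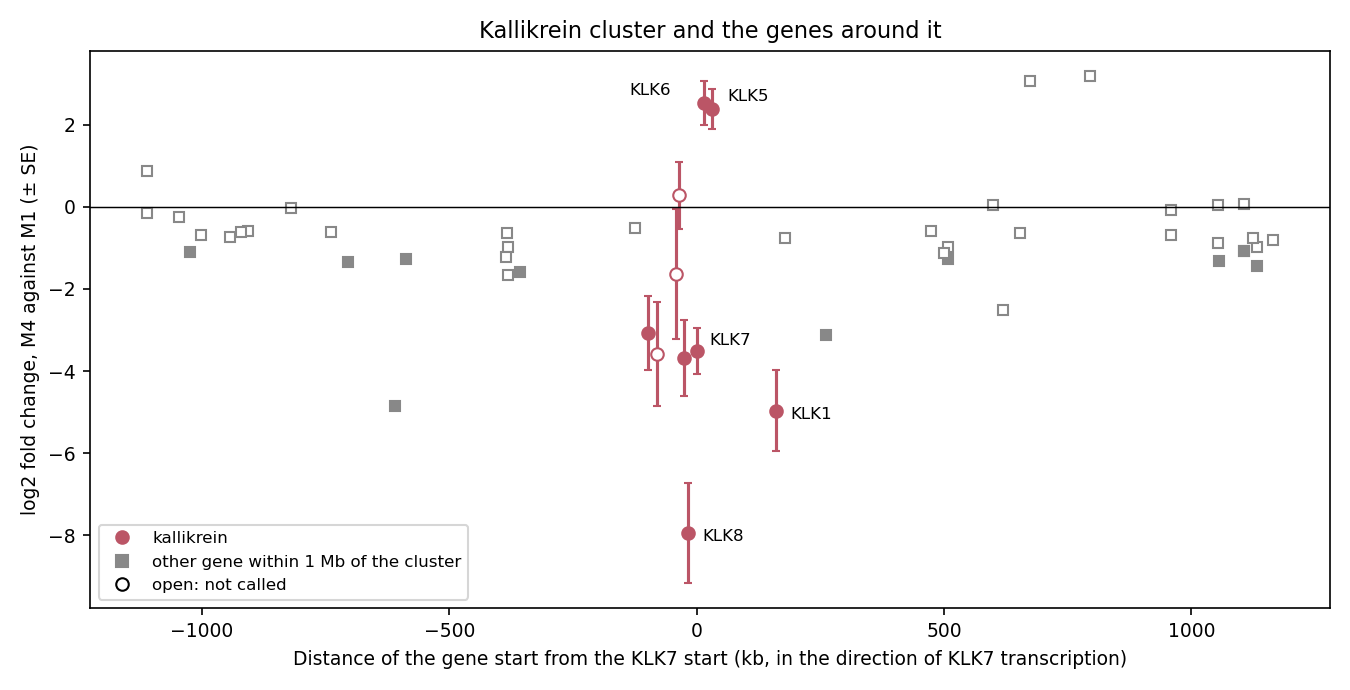
Log2 fold changes in M4 against M1 are plotted against the distance of each gene's start from the KLK7 start, in kb along the direction of KLK7 transcription; circles with standard errors are kallikreins, squares are the 42 other tested genes within 1 Mb of the cluster, and filled symbols were called. KLK5 and KLK6 lie above 2 and the called kallikreins around them lie below -3.

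Over the 8 libraries, the log2 CPM of KLK5 and KLK6 ran together (Pearson r = 0.802, n = 8 libraries) and KLK5 ran against KLK8 (r = -0.825, n = 8). KLK8 and KLK9, which share exon bases with ENSG00000269741, had r = 0.829, and KLK6 and KLK7 had r = -0.0179. These values are descriptions over libraries that fall into 4 lines and share the label conflict. The genes outside the family whose profile was most like the mean standardized profile of the 8 members were SV2C, PGC, APOB, BCAS1, TVP23C-CDRT4, MX2, H4C8, H1-2, ACP6 and FN3K (r from 0.954 to 0.931 over 8 libraries), and SV2C, PGC, APOB, BCAS1 and MX2 had at most 40 counts in any library. For single members, chosen after their values were seen, the profile most like that of KLK7 was TMPRSS13 (r = 0.992), that of KLK6 was SPSB2 (r = 0.996), that of KLK5 was ASNS (r = 0.984) and that of KLK8 was KPTN (r = 0.989), each over 8 libraries.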

How the data were processed

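Poly(A) RNA of 8 libraries was sequenced in pairs of reads. The authors trimmed reads with Trimmomatic, aligned them with STAR to hg19 (GRCh37), and deposited RSEM expected counts per GENCODE 19 gene, not normalized; Picard is also named in the submitters' processing notes. Tool versions and use of strand are not given in the sources used here. The members and gene lists were chosen with earlier results of these data known. Expected counts, of which 12.8% were not whole, were rounded. Totals ran from 69669970 to 107350344 (median 84947231), so that 3 counts correspond to 0.0264 to 0.0426 CPM. Gene identifiers were matched to symbols for 94.4% of rows. Genes passing filterByExpr (18431 of 56632) were fitted with edgeR 4.0.16 (R 4.3.3), with TMM scaling, 1 coefficient for each line and robust quasi-likelihood tests, with Benjamini-Hochberg adjustment. SE is the absolute log2 fold change divided by the square root of F. CPM uses TMM-scaled totals, and likeness is Pearson's r of log2 CPM with a prior count of 2. P-values rest on 1 estimate of spread per gene that all lines share, from 2 cultures of each line. They do not measure the spread within the lines compared, and replicates differed more in some lines than in others. Intervals are exact and cover counting error only.

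Genes beyond the 8 members were named by rule: up to 6 of each list that were called in M4 or M3 against M1 and had the largest log2 fold change, together with SPINK5, ST14, PRSS8, F2RL1 and F2R. Lists are given by counts and medians, and some of their genes and 1 promoter window are not reported here. Alternatives were other scalings (size factors of the DESeq2 type and total counts), DESeq2 1.42.0, no filter on low counts or one of 10 counts in 2 libraries, the replicate number as a block, a fit of the compared lines alone, exchange of the libraries with conflicting labels, a 2-fold rule, and omission of each replicate. Omission of both conflicting libraries, and of single libraries from pooled ratios, was chosen after seeing the data. Replicates with the same number did not deviate together (r from -0.0244 to 0.122 between lines over 18431 genes), so the numbers were not taken as pairs. In counts simulated with known changes for M4 against M1, the fit called 143 of 196 changed genes, with 8 false calls among 17831 genes. All simulated lines had the same spread per gene, whereas the replicates here differed more in some lines than in others. The number of false calls therefore does not carry over to these data. Promoter windows hold the 250 bases before the outermost annotated start near the canonical one (GENCODE 44 mapped to GRCh37).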

Additional observations from a re-analysis of the deposited data

Results flagged for a closer look

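Signals appeared in M4 in rows of the cluster that entered no comparison and that had no count in either M1 library. KLKP1, a kallikrein pseudogene between KLK2 and KLK4, had expected counts of 4 in M4 replicate 1 and 5 in M4 replicate 2 and none in the other 6 libraries. ENSG00000269495, a long non-coding RNA on the plus strand that overlaps KLK5 and KLK6, had an expected count of 8.14 in M4 replicate 1 and none elsewhere. Whether the counting used strand is not given in the sources used here. Without strand, reads from bases that this antisense row shares with KLK5 or KLK6 could not be told apart. The exon bases that it shares with them were not counted. In M4 replicate 1 KLK5 had an expected count of 44117 and KLK6 of 5219.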

How the results depend on the processing

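For the 8 members in 6 comparisons, 858 values were recomputed under the alternatives: 752 kept direction and side of the threshold, 45 lost a call, 41 gained one and 20 reversed. Of 16 called differences, 0 reversed under any alternative and 11 lost the call under at least 1. KLK7 in M3 against M1, M3 against M2, M4 against M1 and M4 against M3 and KLK8 in M4 against M1 kept their calls under all 18. A line with a library left out had 1 library, which was assumed to vary like the others. The cause of the changes was not tested. At 10 or fewer counts in most libraries, depth limits KLK11 and KLK13.

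The count of called members in M2 against M1 (0) became 4 under the 2-fold rule and without a filter on low counts, and 1 with DESeq2 and in a fit of the compared lines alone. In M3 against M1 (2) it became 4 under the 2-fold rule and without a filter, 1 in a fit of the compared lines, under the exchange and without both conflicting libraries, and 1 to 3 without single replicates. In M4 against M1 (5) it became 3 without both conflicting libraries. In M3 against M2 (1) it became 3 under the 2-fold rule and without a filter, 2 with DESeq2 and in a fit of the compared lines, and 1 to 2 without single replicates. In M4 against M2 (5) it became 3 under the exchange, 2 without both conflicting libraries and 1 to 6 without single replicates (1 without M2 replicate 1 or 2). In M4 against M3 (3) it became 1 to 3 without single replicates (1 without M3 replicate 1 or M4 replicate 1). For M4 against M1 the count of 5 also became 7 under the 2-fold rule and 4 under the exchange. It became 6 without a filter and in a fit of the compared lines alone, and it changed when some single libraries were left out. The members that varied over the lines (4) became 8 without a filter, a fit that took in 29419 genes and gave KLK11 smaller standard errors. The shares of all genes called under these alternatives were not counted. With replicate number added as a block, the counts were 0, 2, 5, 1, 5 and 3 in the 6 comparisons and 4 over the lines, as without it, and the numbers do not pair the samples.

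Reversals touched values that were not called (log2 fold changes; ranges are over single libraries left out). KLK9 in M2 against M1 ranged from -0.59 to 0.012, being 0.012 without M1 replicate 1. KLK6 in M3 against M1 ranged from -0.94 to 0.25 (without M1 replicate 1). KLK10 in M3 against M1 ranged from -0.89 to 0.64 (without M1 replicate 1) and was 4.9e-05 under the exchange. KLK10 in M4 against M1 ranged from -1.66 (without M4 replicate 1) to 1.26, with -0.29 without M1 replicate 2, and was -0.097 under the 2-fold rule and -0.29 without both conflicting libraries. KLK10 in M4 against M3 ranged from -1.34 (without M4 replicate 1) to 1.41. KLK11 in M3 against M2 ranged from -4.65 (without M3 replicate 1) to 1.83, and was -0.69 under the exchange and -1.61 under the 2-fold rule. KLK11 in M4 against M2 ranged from -4.57 (without M4 replicate 1) to 3.10, and was -0.99 under the 2-fold rule; in M4 against M3 it ranged from -5.40 (without M4 replicate 1) to 6.78. KLK13 in M3 against M2 ranged from -0.23 (without M2 replicate 1) to 5.72, and was -1.01 under the exchange and -0.23 without both conflicting libraries. KLK13 in M4 against M2 ranged from -1.61 to 4.34, and was 4.34 without M2 replicate 2, and 1.54 under the 2-fold rule.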
